A study of Homo sapiens with 12 samples.

Results

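The regions described here are the ac4C peaks of human chromosomes 4, 13 and 18 in H1 embryonic stem cells. A peak is a stretch of the genome whose RNA was enriched by an antibody to N4-acetylcytidine (ac4C). All peaks of 4 deposited peak lists whose chromosome was 4, 13 or 18 were taken: 3135 and 3036 from wild type (2 lists) and 1689 and 2008 from NAT10 knockdown (2 lists). Together these were 9868 of 140401 peaks, and they lay in 746 of the 10992 genes that had a peak in any list. The 3 chromosomes were chosen by their share of the peaks in earlier results of these data, so that share is given below as a description and was not tested.

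The study compared wild-type H1 cells, an established human embryonic stem cell line, with H1 cells carrying a short hairpin RNA against NAT10. Each genotype had 2 immunoprecipitation libraries with 1 peak list each. The series has 12 samples, of which the inputs and IgG controls were not used here, so no peak can be weighed by how abundant its RNA was. Knockdown cells received the hairpin by a lentivirus that also carries GFP, were kept for 48 h, were enriched for GFP and were expanded with 0.5 ug per ml puromycin in another medium. The labels describe no control hairpin for the wild-type cells, so transduction, selection, medium and NAT10 loss cannot be told apart as sources of a difference. In both groups ribosomal RNA was depleted and RNA was broken to about 200 nt before capture. The labels name the molecule polyA RNA, and how that fits the depletion step is not given in the sources used here. The labels do not state whether replicates came from separate cultures, so differences between replicates may be technical.

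NAT10 is an acetyltransferase that acetylates cytidine in ribosomal and transfer RNA, where ac4C has long been known, and it has been reported to acetylate messenger RNA as well. In the conserved sites of ribosomal RNA the modified base lies in a short motif whose central letters are CCG. Human chromosomes 4, 13 and 18 are known for low gene density, long genes and wide stretches without genes, and chromosome 4 carries the miR-302 cluster of pluripotent stem cells, while chromosome 13 carries the miR-17-92 cluster.

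The low gene density held in the RefSeq annotation used here (GRCh38.p14). Chromosome 13 had 2.96 protein-coding genes per Mb, chromosome 18 had 3.36 and chromosome 4 had 4.05. These were the 3 lowest values among chromosomes 1 to 22 and X. NAT10 itself had 0 peaks in each knockdown list, against 7 and 9 in wild type. Of 14 pluripotency markers, 14 and 13 had a peak in wild type and 10 and 12 did in knockdown. Over all chromosomes 6926 and 7365 genes had a peak in wild type and 6930 and 7872 did in knockdown. The marker counts were not tested. None of 6 mesoderm or 4 endoderm markers had a peak in any list, 1 or 2 of 4 ectoderm markers did, and the fibroblast genes COL1A1, COL1A2 and THY1 (3 of 5 markers) had a peak in every list.

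Sequences are shown for the 2 microRNA clusters, because peaks lay beside or over their hairpins, and for 2 noncoding gene starts that were under a peak in all 4 lists. Mature microRNAs are from RefSeq (GRCh38.p14), with the seed, bases 2 to 8, in capitals. The first 4 share the seed AAGUGCU, the next 2 share AAAGUGC, the 19a and 19b arms share GUGCAAA, and the last 2 share AUUGCAC.
hsa-miR-302a-3p: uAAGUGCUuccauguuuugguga
hsa-miR-302b-3p: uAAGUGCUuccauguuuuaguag
hsa-miR-302c-3p: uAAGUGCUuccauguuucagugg
hsa-miR-302d-3p: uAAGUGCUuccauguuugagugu
hsa-miR-17-5p: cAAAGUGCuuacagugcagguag
hsa-miR-20a-5p: uAAAGUGCuuauagugcagguag
hsa-miR-18a-5p: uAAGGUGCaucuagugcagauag
hsa-miR-19a-3p: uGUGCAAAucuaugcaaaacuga
hsa-miR-19b-3p: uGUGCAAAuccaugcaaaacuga
hsa-miR-92a-3p: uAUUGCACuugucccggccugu
hsa-miR-367-3p: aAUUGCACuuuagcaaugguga

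The gene starts are those of MIR302CHG, the host transcript of the miR-302 cluster (chr4:112648654-112648953, minus strand), and of SNHG8, a small nucleolar RNA host gene (chr4:118278512-118278811, plus strand). Each sequence runs along the gene's strand over 250 bases before and 50 bases after the annotated start (RefSeq, GRCh38.p14), and the capitals are the first 50 transcribed bases.
MIR302CHG: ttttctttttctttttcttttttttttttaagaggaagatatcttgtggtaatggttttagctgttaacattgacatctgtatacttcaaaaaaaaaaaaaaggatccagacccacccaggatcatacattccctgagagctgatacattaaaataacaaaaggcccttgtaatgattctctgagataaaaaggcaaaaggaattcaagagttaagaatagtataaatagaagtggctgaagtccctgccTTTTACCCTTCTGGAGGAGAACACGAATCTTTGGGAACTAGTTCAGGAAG
SNHG8: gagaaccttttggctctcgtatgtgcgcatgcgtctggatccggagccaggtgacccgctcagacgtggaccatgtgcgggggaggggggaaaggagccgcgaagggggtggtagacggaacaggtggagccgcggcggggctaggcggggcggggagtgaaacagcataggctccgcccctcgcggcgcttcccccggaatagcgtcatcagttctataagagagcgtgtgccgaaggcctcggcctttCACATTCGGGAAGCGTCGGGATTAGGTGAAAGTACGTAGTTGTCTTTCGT

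Chromosomes 4, 13 and 18 held a smaller part of the knockdown lists than of the wild-type lists. The 3 chromosomes together took 8.25% (7.98 to 8.53, exact binomial 95% interval) of the first and 7.96% (7.69 to 8.23) of the second wild-type list. They took 6.08% (5.80 to 6.37) of the first and 5.50% (5.27 to 5.74) of the second knockdown list. Both knockdown shares were below both wild-type shares. The intervals cover counting error only and treat peaks as independent, although a gene often holds several, so they are likely too narrow. Fewer peaks, less RNA and fewer reads cannot be told apart in these lists. Chromosome 4 held 1589 and 1518 wild-type peaks against 821 and 1001 knockdown peaks. Chromosome 13 held 840 and 797 against 490 and 558, and chromosome 18 held 706 and 721 against 378 and 449. On each of the 3 chromosomes the groups did not overlap, in count or in share. Both knockdown shares were also below both wild-type shares on chromosomes 1, 2, 3, 5, 6, 8, 10, 12, 14, 15 and X. The lists differed in length (37988, 38150, 27787 and 36476 peaks), and with each list held to its 25000 best-scored peaks the shares were 8.66 and 8.36% in wild type against 6.15 and 5.58% in knockdown.

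**Figure D1:**
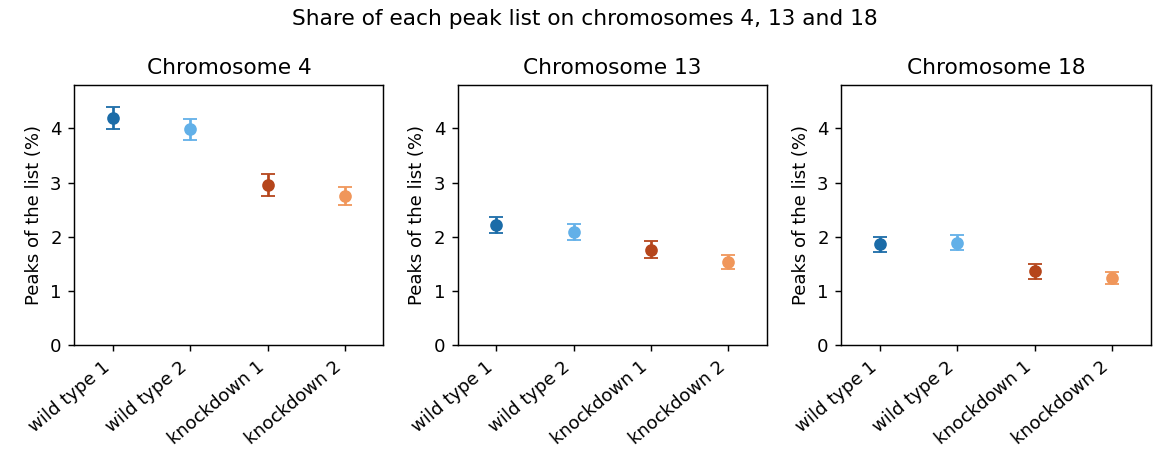
Share of each peak list, in percent, on chromosomes 4, 13 and 18; points are the 4 lists and bars are exact binomial 95% intervals. On each chromosome both knockdown lists lie below both wild-type lists. The same order held on chromosomes 1, 2, 3, 5, 6, 8, 10, 12, 14, 15 and X, which are not drawn.

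Genes with a peak differed less between genotypes than peaks did, with a ratio of knockdown to wild-type means of 0.811 against 0.599 for peaks. Wild type had 555 and 570 such genes and knockdown had 438 and 474, while on the other chromosomes there were 6371 and 6795 against 6492 and 7398. The ratios on the other chromosomes were 1.05 for genes and 0.866 for peaks, so genes differed less than peaks there too. Of the 746 genes, 744 matched the annotation, and 682 of those (91.7%) were protein-coding and 40 were long noncoding RNAs. In the RefSeq annotation, genes with a peak on the 3 chromosomes had a median length of 52.0 kb, against 31.2 kb for genes with a peak elsewhere.

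Across the 23 chromosomes, the ratio of the mean knockdown share to the mean wild-type share ran with protein-coding gene density. Chromosome 18 had a ratio of 0.691, chromosome 4 of 0.698 and chromosome 13 of 0.766, the 3 lowest, and chromosome 19, the most gene-dense, had the highest at 2.05. Pearson's r was 0.891 and Spearman's rho 0.853 over the 23 chromosomes. Without chromosomes 4, 13 and 18, r was 0.879 and rho 0.780 over 20 chromosomes. Chromosomes are not replicates and all ratios come from the same 4 lists, in which shares must add up to the whole, so these are descriptions with no test.

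**Figure D2:**
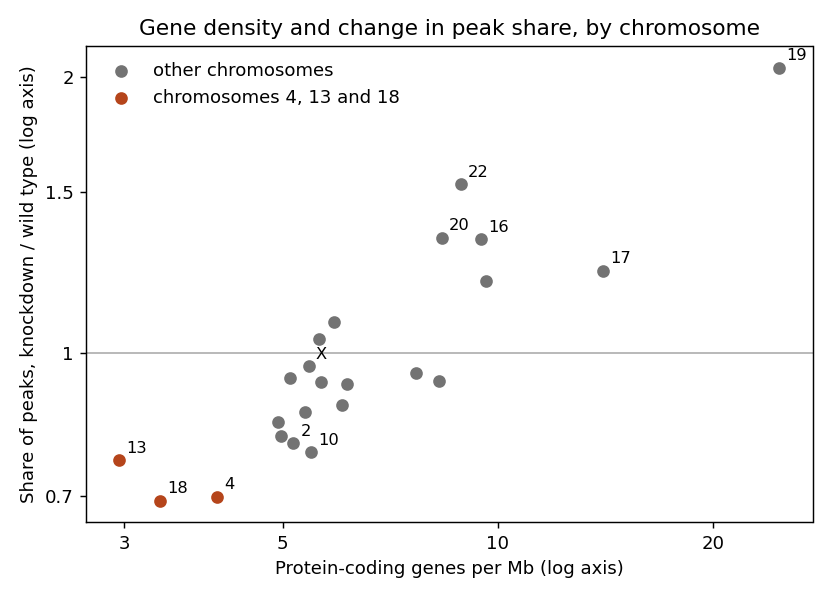
Protein-coding genes per Mb (horizontal, log axis) against the share of peaks in knockdown over that in wild type (vertical, log axis); each point is 1 chromosome. Chromosomes 13, 18 and 4 are leftmost and lie between 0.691 and 0.766, and chromosome 19 is at 2.05.

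The low knockdown share was not uniform along the chromosomes. In windows of 10 Mb, the first window of chromosome 4, which holds 135 protein-coding genes, had 154 and 179 peaks in wild type against 162 and 219 in knockdown. Relative to list length, its knockdown share was 1.35 times that of wild type. The window from 110 to 120 Mb of chromosome 13, with 40 protein-coding genes, had 92 and 105 peaks in wild type against 94 and 112 in knockdown, a ratio of 1.25. The window from 70 to 80 Mb of chromosome 18 had a ratio of 1.03. These were the windows at or above 1 among those with at least 60 wild-type peaks in all. Within the same limit, 12 of 14 windows with more than 36 protein-coding genes, the median, were below 1, and 16 of 17 of the others were. The lowest ratio within it was 0.431, at 100 to 110 Mb of chromosome 13, next to the window at 1.25. Below that limit, the window from 60 to 70 Mb of chromosome 13 had 7 and 7 peaks in wild type and 0 in each knockdown list.

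Peaks per gene on the 3 chromosomes were 5.65 and 5.33 for wild type and 3.86 and 4.24 for knockdown. Both knockdown values were below both wild-type values, a ratio of 0.737 (log2 -0.44; two-sided exact permutation test over lists, p = 0.333, adjusted p = 0.667 over 4 tests). With 2 lists against 2, 0.333 is the smallest p that this test can give, so it cannot pass 0.05. On the other chromosomes the same measure was 5.47 and 5.17 against 4.02 and 4.66. The ratio of the 3 chromosomes to the others was 0.982 as a mean over lists (exact sign-flip permutation test over 4 lists, p = 0.625), above 1 in 2 of the 4 lists.

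In each of the 4 lists, peaks that span a long stretch of the genome took a larger share on chromosomes 4, 13 and 18 than elsewhere. A span can hold introns, since coordinates are genomic. Peaks over 1000 nt made up 27.5 and 30.5% in wild type against 32.3 and 29.7% in knockdown. On the other chromosomes they made up 22.4, 23.5, 24.9 and 24.6% in the same order. The difference was 6.16 ± 1.24 percentage points (SD over 4 lists) and had the same sign in 4 of 4 lists (exact sign-flip permutation test, p = 0.125, the smallest it can give; adjusted p = 0.333 over 4 tests). The 3 chromosomes had the 3 highest values of this share among the 23, with means over the lists between 29.8 and 30.3%. Peaks over 10000 nt made up 6.03 and 6.49% in wild type against 8.94 and 8.76% in knockdown, against 4.41, 4.51, 5.74 and 5.85% elsewhere. Between genotypes the share over 1000 nt on the 3 chromosomes differed by 2.01 points (exact permutation test, p = 0.667), and the groups overlapped.

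The median span was 150 and 175 nt in wild type and 175 and 125 nt in knockdown, against 125, 150, 125 and 125 nt elsewhere. The ratio to the other chromosomes was 1.18 as a mean over lists, above 1 in 3 of 4 lists (exact sign-flip permutation test, p = 0.25). The longest spans lay in GPC6 on chromosome 13, which encodes a glypican, a cell-surface proteoglycan. These were 455911 nt in the second wild-type list, 317796 nt in the first knockdown list and 317821 nt in the second. GPC6 had 10 and 6 peaks in wild type against 4 and 4 in knockdown.

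What the authors' score of a peak means is not given in the sources used here, so it was used as a percentile within its list, where 100 is the best. The median percentile of peaks on the 3 chromosomes was 54.7 and 55.3 in wild type against 54.5 and 49.9 in knockdown. On the other chromosomes it lay between 49.6 and 50.01. The difference was 3.85 ± 2.66 points (SD over 4 lists), positive in 3 of 4 lists and slightly negative in the second knockdown list (49.90 against 50.01; exact sign-flip permutation test, p = 0.25). The best-scored peak of the 3 chromosomes lay in RPL34, a protein of the large ribosomal subunit, in the first wild-type list (percentile 99.9). In the second wild-type list it lay in RPL21, another protein of that subunit (percentile 99.95). It lay in LSM6, a component of the ring that binds U6 RNA and of the decapping machinery, in the first knockdown list, with an infinite score. In the second knockdown list it lay in MRPS18C, a mitochondrial ribosomal protein (percentile 99.8).

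Overlapping peaks of 1 strand, with 1 bp as the least overlap, were joined across the 4 lists, which gave 6442 regions on the 3 chromosomes. Most of them, 70.8%, held a peak in 1 list, and of all regions elsewhere 68.9% did. In the wild-type pair a mean of 36.6% of peaks met a peak of the replicate, and in the knockdown pair 37.4% did. Between genotypes the mean was 25.4%, with a range of 18.4 to 32.9%. No list shared more than 41.4% of these peaks with the replicate of its own genotype. The second knockdown list met its replicate in 33.5% of peaks and the wild-type lists in 31.7 and 29.8%. On the other chromosomes the means were 36.9% for the wild-type pair, 43.5% for the knockdown pair and 23.8% between genotypes.

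A region or gene is called lost where it had a peak in both lists of wild type and in no list of knockdown, gained in the opposite case and kept where all 4 lists did. On chromosomes 4, 13 and 18, 554 of the 1010 regions present in both lists of wild type were lost (54.9%, against 52.2% over all chromosomes). Of the 627 present in both lists of knockdown, 215 were gained (34.3%, against 48.1%), and 205 regions were kept (3.18%, against 3.4%). Lost regions made up 72.0% of the 769 lost or gained regions, against 53.2% over all chromosomes and 34.2% on the gene-dense chromosomes 16, 17, 19 and 22. Chromosome 4 had 285 lost, 114 gained and 100 kept regions, chromosome 13 had 137, 60 and 51, and chromosome 18 had 132, 41 and 54. Leaving out 1 list relaxes the call for its genotype: lost regions then made up 38.7% of lost and gained regions without the first knockdown list, 43.1% without the second, and 87.0 and 87.5% without the first and second wild-type lists. With lists of 25000 peaks each they made up 61.7%. The 53.2% over all chromosomes holds for the 4 full lists, and no such value is given for these settings. This contrast is the one known when the chromosomes were chosen, and no test was made on it.

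By gene, 77 of the 462 present in both lists of wild type were lost (16.7%, against 12.8% over all chromosomes). Of the 328 present in both lists of knockdown, 20 were gained (6.10%, against 17.1%). Of the 746 genes, 264 were kept (35.4%, against 32.3%). Lost genes made up 79.4% of the 97 lost or gained genes, against 42.8% over all chromosomes and 15.5% on chromosomes 16, 17, 19 and 22. The counts were 42 lost and 11 gained genes on chromosome 4, 17 and 3 on chromosome 13, and 18 and 6 on chromosome 18. Of the 11 gained genes of chromosome 4, 6 lay in its first 10 Mb, where 2 of its 42 lost genes lay, a window chosen after its values were seen. Gained genes were short, with a median length of 14.8 kb against 45.9 kb for lost and 66.0 kb for kept genes. The medians elsewhere were 15.8, 45.6 and 42.9 kb. Without any 1 list, lost genes made up between 71.8 and 74.0% of lost and gained genes, although their number rose to between 114 and 145.

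**Figure D3:**
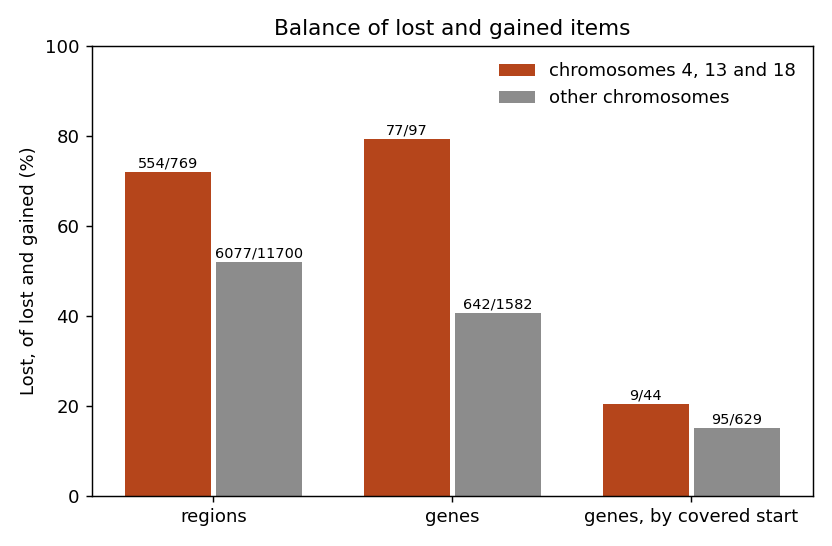
Lost items as a percentage of lost and gained items, for regions, genes and genes judged by a covered start, on chromosomes 4, 13 and 18 and on the other chromosomes; numbers above the bars are lost over lost and gained. Regions and genes on the 3 chromosomes lean to loss (72.0 and 79.4%), and genes judged by their start lean to gain in both sets of chromosomes.

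A gene without a listed peak may still have had one that was numbered and left out. Peak numbers in the lists have gaps and follow the Ensembl identifier, so the unlisted numbers at a gene's place can be counted, although they may belong to a neighbour in that order. Of the 77 lost genes, 44 had an unlisted number at their place in both knockdown lists and 7 in neither. That was 57.1% with one in both, against 409 of 642 lost genes elsewhere (63.7%). Of the 20 gained genes, 15 had one in each list of wild type (75%, against 492 of 940 elsewhere, 52.3%), and none lacked one in both.

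The lost genes with the most peaks carried between 7 and 17 peaks per wild-type list. On chromosome 4, KIAA1109, a lipid transfer protein gene of 210 kb, had 17 and 11 peaks in wild type against 0 in each knockdown list, with no unlisted number at its place in either. PTPN13, a protein tyrosine phosphatase gene, had 12 and 7 against 0 and 0, with 2 unlisted numbers in the second knockdown list. On chromosome 13, DIAPH3, a formin that nucleates actin filaments, had 12 and 8 peaks against 0 and 0. NUP58, a nucleoporin of the central channel, had 8 and 7 against 0 and 0. On chromosome 18, RNMT, the methyltransferase that completes the messenger RNA cap, had 8 and 8 peaks against 0 and 0. ME2, the mitochondrial malic enzyme, had 7 and 12 against 0 and 0. At each of these genes at most 2 unlisted numbers stood in a knockdown list, fewer than the wild-type peaks of that gene.

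The gained genes with the most peaks carried between 1 and 14 peaks per knockdown list. On chromosome 4, TADA2B, an adaptor of histone acetyltransferase complexes, had 0 and 0 peaks in wild type against 7 and 5 in knockdown, and SH3BP2, a signalling adaptor, had 0 and 0 against 5 and 6. On chromosome 18, CTDP1, the phosphatase of the RNA polymerase II tail, had 0 and 0 against 8 and 14. CXXC1, which binds unmethylated CpG and belongs to a histone methyltransferase complex, had 0 and 0 against 5 and 5. The 3 gained genes of chromosome 13 were LHFPL6 (3 and 3 knockdown peaks), the antisense RNA COL4A2-AS2 (1 and 1) and the ribosomal pseudogene RPL5P31 (1 and 1). All of these but LHFPL6 in the second wild-type list had at least 1 unlisted number at their place in each wild-type list. RPL5P31 is a copy of RPL5, so the origin of its reads is uncertain.

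Among kept genes, 92 of 264 had fewer peaks in both knockdown lists than in either wild-type list (34.8%, against 31.9% over all chromosomes). The reverse held for 15 of 264 (5.68%, against 12.6%). The first knockdown list was the shortest (27787 peaks), and what list length does to counts per gene was not tested. The gene with the most peaks in all was ANKRD17, an ankyrin repeat protein gene of chromosome 4, with 23 and 18 peaks in wild type against 15 and 21 in knockdown, where the groups overlapped. FAT1, a large protocadherin, had 25 and 33 against 11 and 2. SEC31A, a coat protein of vesicles that leave the endoplasmic reticulum, had 19 and 23 against 14 and 13. FRAS1, an extracellular matrix protein gene, had 26 and 29 against 5 and 5. In these last 3 genes both knockdown lists were below both wild-type lists.

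The other kept genes with the most peaks per list were ZC3H13 and FARP1 on chromosome 13 and NEDD4L and TCF4 on chromosome 18. ZC3H13, a subunit of the m6A methyltransferase complex, had 18 and 14 peaks in wild type against 9 and 8 in knockdown. FARP1, a gene of chromosome 13, had 12 and 20 against 7 and 12. TCF4, a basic helix-loop-helix transcription factor, had 18 and 14 against 8 and 9. NEDD4L, a ubiquitin ligase, had 11 and 18 against 14 and 10, with overlap between the groups.

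The 15 kept genes with more knockdown peaks included COL4A2, a collagen chain of basement membranes at the far end of chromosome 13, with 5 and 8 peaks in wild type against 14 and 24 in knockdown. SUPT20H, a subunit of the SAGA coactivator complex, had 10 and 5 against 11 and 12. TSC22D1, a transcriptional regulator, had 4 and 5 against 10 and 8. RASL11B, a small GTPase gene of chromosome 4, had 2 and 3 against 8 and 5. H2AZ1, the histone variant H2A.Z, had 1 and 1 against 2 and 2. These 5 genes were picked after their values were seen.

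Some of the best-scored lost regions lay in genes that kept a peak elsewhere. The lost regions with the highest percentiles on chromosome 4 lay in RPL34 (chr4:108622512-108622636; percentiles 99.9 and 99.6) and in NUP54, another channel nucleoporin (chr4:76118056-76118205; 99.7 and 98.5, and chr4:76117706-76117780; 99.5 and 98.7). RPL34 had 7 and 3 peaks in wild type against 0 in knockdown, with 6 and 8 unlisted numbers at its place, while NUP54 had 14 and 5 against 0 and 3. Ribosomal protein genes have many processed copies, so how reads of RPL34, RPL21 and RPL17 were placed is uncertain. On chromosome 13 the lost regions lay in PAN3, a subunit of a deadenylase (chr13:28293659-28293933), in the antisense RNA LMO7-AS1 and in HSPH1, a heat shock protein (chr13:31136698-31137022). HSPH1 had 11 and 13 peaks against 3 and 6, so its other peaks included some in knockdown. On chromosome 18 they lay in MYL12A, a regulatory light chain of myosin, in its antisense RNA MYL12-AS1 and in RPL17-C18orf32. MYL12A and MYL12-AS1 lie on opposite strands of 1 locus, and whether the authors' calling used strand is not given in the sources used here.

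Gained regions with high percentiles lay in DHX15, a helicase that takes spliceosomes apart (chr4:24576592-24580732; percentiles 98.9 and 98.8), in NOP14-AS1 and in TACC3, a spindle protein (chr4:1723218-1723515; 98.4 and 97.5). TACC3 had 7 peaks in each of the 4 lists. On chromosome 13 they lay in TSC22D1 (chr13:44436036-44436110; 98.1 and 98.2), RPL5P31 and RPL21 (chr13:27253741-27254291; 97.2 and 95.5). RPL21 had 3 and 2 peaks in wild type against 3 and 2 in knockdown. On chromosome 18 they lay in RPL17-C18orf32, NEDD4L and SCARNA17, a small RNA of Cajal bodies, whose region spanned 25246 nt, longer than the RNA. RPL17-C18orf32, a read-through of the RPL17 gene, held both a lost region (chr18:49488478-49489175) and a gained one (chr18:49490436-49490460) and had 3, 4, 3 and 5 peaks in the 4 lists.

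Kept regions with the highest percentiles lay in LSM6 (98.4 and 97.8 in wild type, 99.98 and 98.6 in knockdown) and in METAP1, a methionine aminopeptidase that trims new proteins (99.9 and 96.4 against 99.3 and 99.8). Another on chromosome 4 held DANCR, a long noncoding RNA that hosts the small nucleolar RNA SNORA26. On chromosome 13 they lay in HMGB1, a chromatin protein, and at 2 places in COL4A2. On chromosome 18 they lay in ATP5F1A, a subunit of ATP synthase (97.2 and 98.6 against 99.3 and 98.7), in SS18, a subunit of the BAF chromatin remodeller, and in MYL12B. The ATP5F1A region spanned 2813 nt, and the gene had 12 and 13 peaks in wild type against 8 and 8 in knockdown.

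Of 54 genes for development and stem cell signalling on the 3 chromosomes, 33 had a peak in some list. They carried 220 and 218 peaks in wild type against 92 and 66 in knockdown. Of the 20 present in both lists of wild type 2 were lost, EFNB2, an ephrin ligand, and LIN54, a cell cycle repressor subunit, and 0 of 11 present in both lists of knockdown were gained. The lost share was 10%, against 16.7% of all genes on the 3 chromosomes, and the gained share of all genes there was 6.10%. Of the 11 kept members, 8 had fewer peaks in both knockdown lists and 0 had more, against 34.8 and 5.68% of all kept genes there. FGF2, the growth factor that sustains human embryonic stem cells, had 14 and 7 peaks against 3 and 2. SMAD2, which carries Activin and Nodal signals, had 21 and 15 against 5 and 5. Its partner SMAD4 had 13 and 9 against 7 and 4. LRBA, a trafficking protein that also stood in this list, had 27 and 17 against 4 and 2. TGIF1, a repressor of SMAD signalling, had 5 and 8 against 8 and 6. ZIC2 had 2 and 8 against 7 and 4, and ZIC5 had 4 and 5 against 2 and 4.

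Of 45 genes for cell cycle, replication and genome stability, 43 had a peak. Of 31 in both wild-type lists 3 were lost: DIAPH3, PLK4, the kinase of centriole duplication (3 and 2 peaks), and RB1, the retinoblastoma protein (7 and 3 peaks). None of 24 in both knockdown lists was gained. The lost share was 9.68%, below the 16.7% of all genes there. BRCA2, which loads the recombinase in DNA repair, had 12 and 10 peaks in wild type against 1 and 4 in knockdown, and CCNA2, cyclin A, had 6 and 7 against 3 and 4. TYMS, thymidylate synthase, had 3 and 4 against 4 and 4. Of the 20 kept members, 5 had fewer peaks in both knockdown lists and 0 had more.

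Of 29 chromatin genes, 24 had a peak. Of 18 in both wild-type lists 2 were lost, HPF1, a cofactor of ADP-ribosylation (3 and 3 peaks), and SAP30, a subunit of a histone deacetylase complex (2 and 2). Of 18 present in both lists of knockdown 2 were gained, HMGB2, a high mobility group protein (3 and 6), and MBD1, which binds methylated DNA (3 and 3). Both shares were 11.1%, against 16.7% lost and 6.10% gained among all genes there. NSD2, a histone H3 methyltransferase, had 13 and 23 peaks in wild type against 7 and 12 in knockdown. SMARCA5, the ISWI remodelling ATPase, had 10 and 6 against 6 and 3, where 1 value was the same in both groups.

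Of 61 genes for RNA binding, RNA processing and translation, 54 had a peak, with 327 and 280 peaks in wild type against 172 and 184 in knockdown. Of 47 in both wild-type lists 8 were lost: RPL34, RPL9, RNMT, NUP58, SEH1L, CNOT6L, NUDT6 and WDR7. NUDT6 and WDR7 have loose ties to this heading. With them counted, the lost share was 17.02%, near the 16.7% of all genes there. SEH1L, a nucleoporin of the outer ring, had 7 and 8 peaks, and CNOT6L, a deadenylase, had 4 and 4. Of 35 in both knockdown lists 1 was gained, GAR1, a protein of the particles that guide pseudouridylation, with 5 and 5 peaks. YTHDC1, a nuclear m6A reader, had 7 and 7 peaks in wild type against 10 and 4 in knockdown. METTL14, a subunit of the m6A methyltransferase, had 3 and 4 against 3 and 2. EXOSC8, a subunit of the RNA exosome, had 10 and 7 against 9 and 12.

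The remaining 4 gene groups each held more lost than gained genes. The lost shares in these groups lay on both sides of the 16.7% of all genes on the 3 chromosomes. Of 28 ubiquitin and protein quality control genes in both wild-type lists 5 were lost (17.9%; HSPA4L, MARCHF1, PSMG2, RNF125 and UFSP2), and of 20 in both knockdown lists 1 was gained (HERC5; 5%, against 6.10%). Of 24 metabolic and mitochondrial genes 3 were lost, ATP5ME, the fatty acid elongase ELOVL6 and PPAT, the first enzyme of purine synthesis (7 and 4 peaks), or 12.5%, and 0 of 16 were gained. PAICS, a later enzyme of that pathway, had 17 and 10 peaks in wild type against 5 and 4 in knockdown. Of 33 genes for cytoskeleton, adhesion and vesicle transport 5 were lost (15.2%; DSC2, FRY, KPNA3, PARD6G and VPS36), and 0 of 19 were gained. DSG2, a desmosomal cadherin, had 20 and 18 against 5 and 0, while COL4A1, the partner chain of COL4A2, had 14 and 2 against 16 and 11. Of 12 zinc finger genes in both wild-type lists 1 was lost (8.33%), ZNF518B, and 0 of 8 were gained. All 8 groups had fewer peaks in both knockdown lists than in either wild-type list, as the 3 chromosomes did as a whole. The ratio of knockdown to wild-type peaks ran from 0.361 for development and stem cell signalling to 0.621 for chromatin, against 0.599 for all peaks of the 3 chromosomes. The genes in these groups were listed with earlier results of these data known, and no group was tested. Some members, such as LRBA, NUDT6 and WDR7, have loose ties to their heading.

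The share of peaks at the 3' end of genes was lower in both knockdown lists, and that at the 5' end was higher. A peak was placed by its centre along the annotated gene, introns included. The last 10% of the gene held 31.0 and 29.1% of wild-type peaks and 21.8 and 24.7% of knockdown peaks. This was 30.04 ± 1.33% against 23.2 ± 2.08% (SD, n = 2 lists each; exact permutation test, p = 0.333, the smallest possible). The first 10% held 6.31 and 8.60% against 12.1 and 11.7%, or 7.46 ± 1.63% against 11.9 ± 0.217% (exact permutation test, p = 0.333). In both measures the groups did not overlap. The median position was 74.8 and 74.3% of the gene in wild type and 59.9 and 62.5% in knockdown. On the other chromosomes the last 10% held 30.5, 29.1, 23.9 and 25.6% and the first 10% 6.81, 9.14, 12.1 and 11.5%, the same order of the groups.

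**Figure D4:**
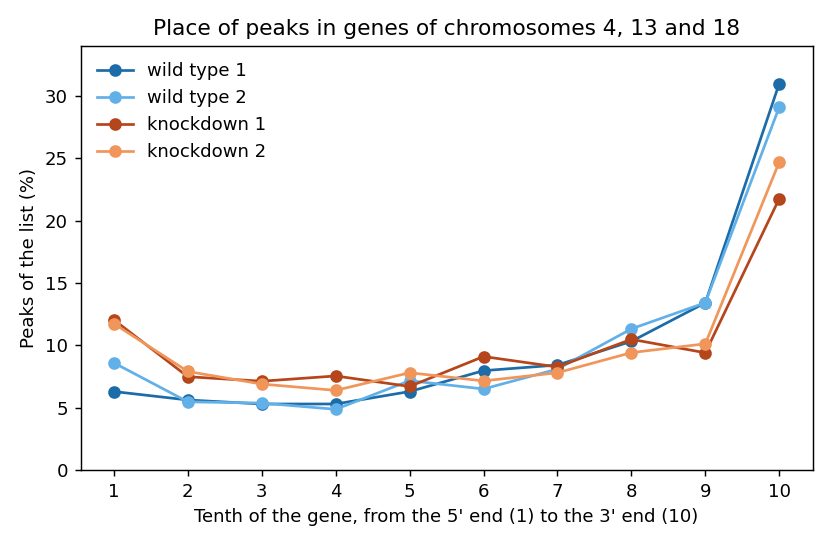
Share of peaks, in percent of the placed peaks of each list, in steps of 10% of the gene from the 5' end to the 3' end on chromosomes 4, 13 and 18; each line is 1 list. The wild-type lists lie above the knockdown lists in the last 10% (31.0 and 29.1 against 21.8 and 24.7%) and below them in the first.

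Gene starts under a peak were more numerous in both knockdown lists. A start counted as covered where a peak on its strand overlapped its first 50 transcribed bases. On the 3 chromosomes 27 and 46 starts were covered in wild type and 82 and 78 in knockdown, a difference of 43.5 between means (exact permutation test, p = 0.333, the smallest possible). On the other chromosomes 497 and 754 starts were covered in wild type and 1184 and 1576 in knockdown, the same order of the groups. By gene on the 3 chromosomes, 26 and 44 had a covered start in wild type and 75 and 71 in knockdown. Of 16 genes with a covered start in both wild-type lists, 9 lost it (56.25%, against 43.3% over all chromosomes), and of 42 with one in both knockdown lists 35 had gained it (83.3%, against 71.3%). Genes with a gained start made up 79.5% of genes with a lost or gained start, against 84.5% over all chromosomes, so this balance was no higher than the background. With peaks of at most 1000 nt, 5 genes lost a covered start and 25 gained one.

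The gained starts belonged to genes of several roles. They included EIF4E, the cap-binding protein (6 and 7 peaks in wild type, 4 and 6 in knockdown over the whole gene), and TPT1, a translationally controlled protein (10 and 5 against 10 and 6). They also included RPL21, H2AZ1, GAR1, PAICS, DHX15, EXOSC8, ATP5F1A, MRPS18C and POLR1D, a subunit of RNA polymerases I and III. ZFP42, a marker of pluripotent cells, had a gained start and 6, 4, 4 and 4 peaks in the 4 lists. Lost starts included those of CUL4A, a ubiquitin ligase scaffold, ME2, NOP14, WDR1 and OSBPL1A. The 4 starts covered in all lists were those of ANKRD12, HMGB1, MIR302CHG and SNHG8. The peaks over ANKRD12 and HMGB1 spanned between 48061 and 151435 nt. At MIR302CHG the peak over the start spanned 50, 250, 175 and 190 nt in the 4 lists, with percentiles of 86.4, 31.1, 91.0 and 91.7. At SNHG8 it spanned 100, 25, 100 and 200 nt, with percentiles of 35.3, 61.1, 11.5 and 54.8. Both sequences stand in full above.

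The letters CNNCNNCNN, a repeat of cytidine that has been reported for ac4C-enriched messenger RNA, were searched on the transcribed strand of the first 50 bases. They were found in 51.6% of all annotated starts of the 3 chromosomes and in 61.2% of the starts of genes with a peak. Of the covered starts 55.6 and 63.0% in wild type against 58.5 and 61.5% in knockdown held them, close to the share for all genes with a peak. On the other strand, read as NNGNNGNNG, the shares were 57.9, 74.1, 74.1, 69.6, 70.7 and 71.8% in the same order. The capitals of MIR302CHG and of SNHG8 hold 0 matches to CNNCNNCNN, with 9 and 8 cytidines among 50 bases. A match is a run of letters and not a site of acetylation.

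The 3 chromosomes carry 114 annotated microRNA hairpins. Of these, 5 and 5 lay in full or in part under a peak in wild type and 8 and 16 in knockdown. Under peaks of at most 1000 nt the counts were 1 and 1 against 5 and 7. Most of the difference lay at 2 loci, the miR-302 and miR-17-92 clusters. With peaks of any span, these held 0 and 1 of the counted hairpins in wild type against 4 and 10 in knockdown. With peaks of at most 1000 nt they held 0 and 1 against 4 and 7. Some overlaps were slight. In the first knockdown list miR-17 was met over 18 of 84 nt and miR-302b over 7 of 73 nt. The peak that met miR-302b there was the one over the MIR302CHG start, which was under a peak in all 4 lists. Outside the 2 clusters, with peaks of any span, 5 and 4 hairpins lay under a peak in wild type against 4 and 6 in knockdown. No count is given for hairpins of the other chromosomes, so whether the difference is particular to these 3 was not tested.

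MIR302CHG, whose start is printed above, had 5 and 6 peaks in wild type against 4 and 6 in knockdown. The second knockdown list also held 2 peaks named for MIR302D and MIR302C within the cluster (chr4:112648051-112648200, percentile 84.7, and chr4:112648226-112648500, percentile 97.1). Between them they covered the 302c arms in full and the 302a arms in part, and touched 1 arm each of 302b and 302d. In the second wild-type list a peak of percentile 31.1 covered miR-302b-3p and its 5p arm. The first wild-type list and the first knockdown list had no peak over a mature arm of this cluster, so the coverage was not shared by replicates. No list had a peak over miR-367.

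MIR17HG, the host transcript of the miR-17-92 cluster on chromosome 13, had 4 and 0 peaks in wild type against 9 and 8 in knockdown. Both knockdown counts exceeded both wild-type counts, but the gene was neither gained nor kept under the rule, since 1 wild-type list held peaks. A peak that starts at 91349698 had a percentile of 97.5 in the first wild-type list, 99.9 in the first knockdown list and 80.0 in the second, and the second wild-type list lacked it. Hairpins lay under a peak in the knockdown lists alone. The peak at 91349698 ended before the first hairpin in each of these lists. In the first knockdown list other peaks touched the hairpins of miR-17, miR-18a and miR-19a and covered both arms of miR-19a in full. Their percentiles were 38.8 (miR-17) and 45.6 (miR-18a and miR-19a). In the second a span of 3396 nt (percentile 84.0) covered all 6 hairpins, and narrower peaks touched miR-17, miR-19a and miR-20a. These narrower peaks spanned 200, 75 and 175 nt, with percentiles of 63.0, 16.1 and 66.8.

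**Figure D5:**
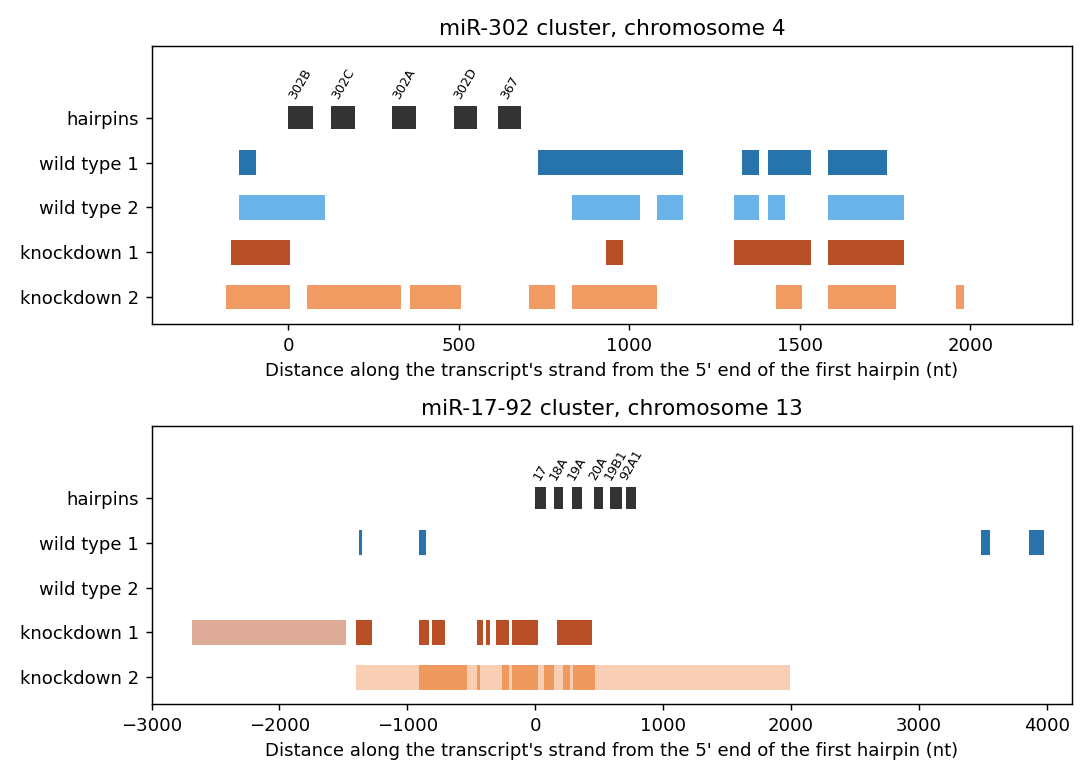
Peaks of the 4 lists (coloured bars) and annotated hairpins (black bars) at the miR-302 cluster of chromosome 4 and the miR-17-92 cluster of chromosome 13, against distance in nt along the transcript's strand from the 5' end of the first hairpin; pale bars are spans over 1000 nt. The miR-17-92 host transcript has 4 and 0 peaks in wild type against 9 and 8 in knockdown.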

How the data were processed

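Peaks were those of 4 lists, 1 for each ac4C immunoprecipitation library (2 wild type, 2 knockdown), tied to samples by genotype and replicate number in the list names. The submitters' processing notes name build hg38, HISAT2 2.2.1, fastp 0.21.1, bedtools 2.30.0 and SAMtools 1.12. Which caller, cutoff, control and annotation made the peaks is not given in the sources used here. Per the file headers, a peak has position, number, score, strand, Ensembl identifier and symbol. The score is the authors', with no value under 10, finite values up to 308.209 and 44 infinite values. It was turned into a percentile within each list. The deposited lists hold no read counts, so read depth is unknown. Inputs and IgG controls were not used here.

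Starts, which the files count from 0, were set to count from 1. Same-strand peaks sharing 1 bp or more were merged into regions. Lost, gained and kept calls were made per region, gene (Ensembl identifier) and gene start (counted by gene). Genes were matched to RefSeq (GRCh38.p14, whose primary coordinates are those of hg38) by symbol or synonym and chromosome: 744 of 746 genes here and 10919 of 10992 in all. Promoter sequence was at hand for 636 of the 746. Per-list values were compared by two-sided exact permutation tests over the 6 arrangements of 2 against 2 lists (smallest p 0.333). The 3 chromosomes were compared with the others by sign-flip tests over the 4 lists (smallest p 0.125). Benjamini-Hochberg adjustment ran over 4 tests per family. Intervals are exact binomial 95% intervals (Clopper-Pearson), for counting error only, with peaks treated as independent. The counting and test code was tested on simulated data. Python 3.11.15, pandas 2.3.3, numpy 2.4.6, scipy 1.17.1 and matplotlib 3.10.9 were used.

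The chromosomes, gene lists and named items were chosen with earlier results of these data known. Named items were, per chromosome and class, the 3 regions with the highest percentile and the 2 genes with the most peaks in the lists that define the class. Added to these were the 5 genes with the most peaks, the best-scored peak of each list, the 5 longest spans and examples from 8 gene lists. Some items that this rule names are not reported here. Peak placement along genes, gene starts, microRNA hairpins, 10 Mb windows and the counts of kept genes with fewer or more peaks were added after the data were seen. Alternatives were a score filter, a limit on span, a stricter overlap, another set of chromosomes, lists left out in turn, the replicate number as a block and lists of equal length.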

Additional observations from a re-analysis of the deposited data

How the results depend on the processing

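Of the alternatives to the reported values, 97 stayed within 1.5 times a count or within 1 SD of another value, and 34 moved further. The sign turned in 5, all in median span between genotypes or peaks per gene against the other chromosomes, neither of which could pass its test. Keeping the stronger 50% of peaks by score gave 302 lost, 135 gained and 73 kept regions, peaks per gene at 0.0093 (log2) against the other chromosomes, a median span of 0.16 (log2) and a share over 1000 nt of 4.27 points between genotypes, and 30 more covered gene starts in knockdown. Keeping peaks of at most 1000 nt gave 355 lost and 71 kept regions, peaks per gene at -0.14 (log2) against the other chromosomes, and 27 more covered starts. That setting has no share over 1000 nt by construction. With the 25000 best-scored peaks of each list, chosen after the data were seen, there were 363 lost and 133 kept regions. Peaks per gene were -0.24 (log2) between genotypes and 0.0095 against the other chromosomes, and the score percentile differed by -8.26 points between genotypes. Against chromosomes 16, 17, 19 and 22, the share over 1000 nt differed by 9.53 points and the percentile by 6.59.

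Leaving out a list raised every count of calls, by construction, since calls then need fewer lists to concur. Lost regions ranged from 682 to 2240, gained regions from 321 to 1080, kept regions from 300 to 329, lost genes from 114 to 145 and gained genes from 40 to 52. Lost items stayed between 71.8 and 74.0% of lost and gained genes. Among regions they made up 38.7% without the first and 43.1% without the second knockdown list. They made up 87.0 and 87.5% without the first and second wild-type list. Gained regions outnumbered lost ones without a knockdown list, a setting that relaxes the gained call. The shares over all chromosomes are not given at these settings, so the lean relative to other chromosomes was not tested there. Median span between genotypes ranged from -0.37 to 0.11 (log2), and peaks per gene against the other chromosomes from -0.051 to 0.0099. With the replicate number as a block, peaks per gene remained at -0.44 (log2; exact permutation p = 0.5, the smallest for 2 pairs), and no call changed; the numbers are not known to pair the samples. Without read depth or input, a missing peak cannot be told from less RNA or fewer reads, and fewer cells or less RNA per cell cannot be told apart.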
